A study of Mus musculus with 9 samples.

Results

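The genes described here are 10 members of the AP-1 and immediate early group. They were picked by symbol, but the list was chosen with earlier results of these data known. The members are the Fos family (*Fos*, *Fosb*, *Fosl1* and *Fosl2*), the Jun family (*Jun*, *Junb* and *Jund*), the related factor *Atf3*, and *Egr1* and *Ier3*. All 10 were found in both deposited tables, which list 13424 and 13478 genes. The tables come from RNA-seq of AML12, a hepatocyte line that was derived from the liver of mice carrying a TGF-alpha transgene and that is grown with serum, insulin and dexamethasone. There were 9 libraries in 3 groups of 3, namely cells labelled control and cells infected with lentivirus for hairpin 1 or hairpin 2 against *Srrm2*, a scaffold protein of nuclear speckles, harvested on day 5 of infection. The labels give no day for the control group. No source used here gives the time between the last change of medium and harvest.

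Immediate early genes are switched on within minutes of a growth factor, serum or stress signal, without new protein synthesis, and most of their RNAs are short-lived. AP-1 is a pair of basic leucine zipper proteins: Jun proteins pair with each other or with a Fos protein, whereas Fos proteins need a Jun partner to bind DNA. In liver, these factors are known for their induction after injury and at the start of regeneration.

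Each table gives 1 mean normalized read count per gene, taken by the authors over the control libraries and those of 1 hairpin. The mean of the shRNA 1 table therefore pools 6 libraries, and that of the shRNA 2 table was taken to pool the same controls with 3 other libraries, although the labels name the shRNA 2 table for only 1 of the 3 controls and tables of further hairpins for the other 2. The values carry no error, and neither the depth of a library nor the spread between replicates can be read from them. For this reason no test was run, and every difference below is a description. Nothing here says how a hairpin group compares with the control group, unless the arithmetic of the pooled means fixes it, and the targeted gene cannot serve as a check of the labels: *Srrm2* had pooled means of 3428 and 3759 in the tables of shRNA 1 and shRNA 2. All 7 genes taken as hepatocyte markers (*Alb*, *Ttr*, *Trf*, *Hnf4a*, *Krt8*, *Krt18* and *Cdh1*) were in both tables, with *Alb* at means of 2151 and 1814. Of the bile duct markers, 3 of 4 were listed and *Krt19* had means of 2851 and 2753. Endothelial markers (0 of 3) were not listed, 1 of 4 fibroblast markers was listed (*Col1a1*, means of 3.85 and 3.99), and of 3 leukocyte markers *Ptprc* had means of 5.30 and 5.47 and *Cd68* 25.1 and 29.8. The part of these cell types in the values below was not tested.

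All 10 members reached a mean of 10 or more in each table, and their levels were compared after division by the length of each gene's merged exons in kilobases. In both tables the order was led by *Junb*, *Ier3*, *Egr1*, *Fosl2* and *Fos*, and *Fosb* was lowest. *Junb*, whose product is the Jun protein that often restrains c-Jun, had a mean normalized count of 767 in the shRNA 1 table and 760 in the shRNA 2 table, or 425 and 421 per kb. That placed it above 95% of the genes listed in each table, at percentiles 95.5 and 95.3. *Ier3*, a small stress-induced regulator of cell survival, had 339 and 350 per kb, at percentiles 93.9 and 93.9.

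*Egr1*, a zinc finger factor induced by serum through the serum response factor, had mean normalized counts of 675 and 739, or 218 and 238 per kb. *Fosl2*, which encodes Fra-2, had 996 and 1098, the largest mean counts among the members, but 170 and 188 per kb because its merged exons span 5855 bases. Below these genes lay a group of close levels. In the shRNA 1 table *Fos* had 97.4 per kb, *Fosl1* 92.3, *Jun* 87.8, *Jund* 82.4 and *Atf3* 77.1. In the shRNA 2 table the same genes had 122, 68.6, 97.1, 88.8 and 83.7 per kb, so *Fosl1* moved from rank 6 to rank 9 and *Jun*, *Jund* and *Atf3* each moved up by 1. With no spread between libraries, neighbours in this group cannot be ranked with confidence. *Fosb* stood apart at the bottom in both tables, with 13.6 and 23.6 per kb, at percentiles 26.5 and 35.5 of the genes listed.

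**Figure D1:**
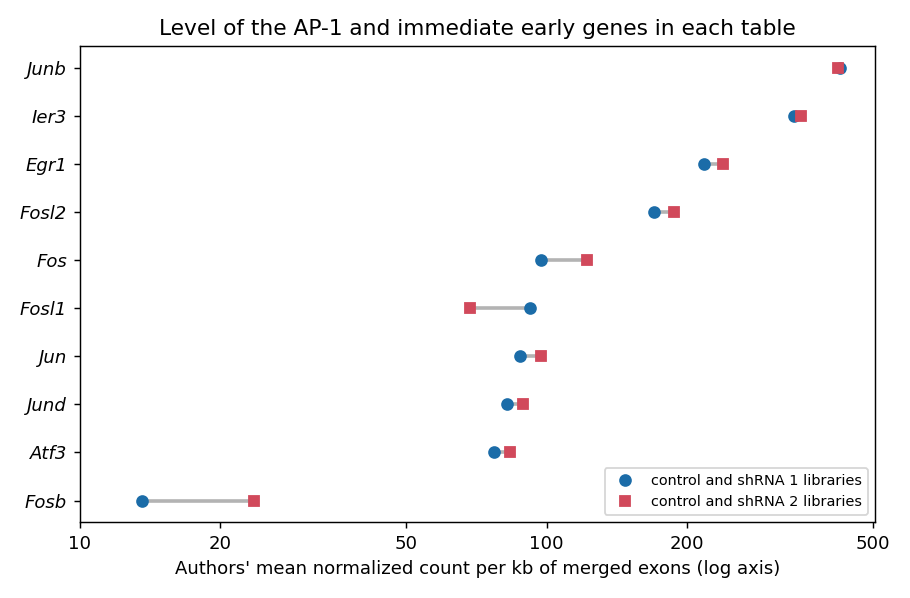
Mean normalized count per kb of merged exons (log axis) for each of the 10 genes, with circles for the table that pools control and shRNA 1 libraries and squares for the table that pools control and shRNA 2 libraries, before scaling between tables. *Junb* lies highest at 425 and 421 per kb, *Fosb* lowest at 13.6 and 23.6, and the longest gaps between the symbols are those of *Fosb* and *Fosl1*.

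Within each family a single gene held most or nearly most of the RNA. *Junb* accounted for 71.4% of the summed Jun family mean per kb in the shRNA 1 table and 69.4% in the shRNA 2 table, while *Jun*, which encodes c-Jun, held 14.8% and 16.0% and *Jund*, the member that is least dependent on stimulation, 13.9% and 14.6%. In the Fos family, *Fosl2* held 45.6% and 46.7%. *Fos* held 26.1% in the shRNA 1 table and 30.4% in the shRNA 2 table, and *Fosl1*, which encodes Fra-1, had 24.7% and 17.1%. *Fosb* held 3.65% and 5.87%. The summed level of the Jun family was 595 and 607 per kb and that of the Fos family 374 and 402 per kb, so Jun family RNA was the more abundant in either table. These shares are of RNA and do not measure the proteins or the pairs they form.

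**Figure D2:**
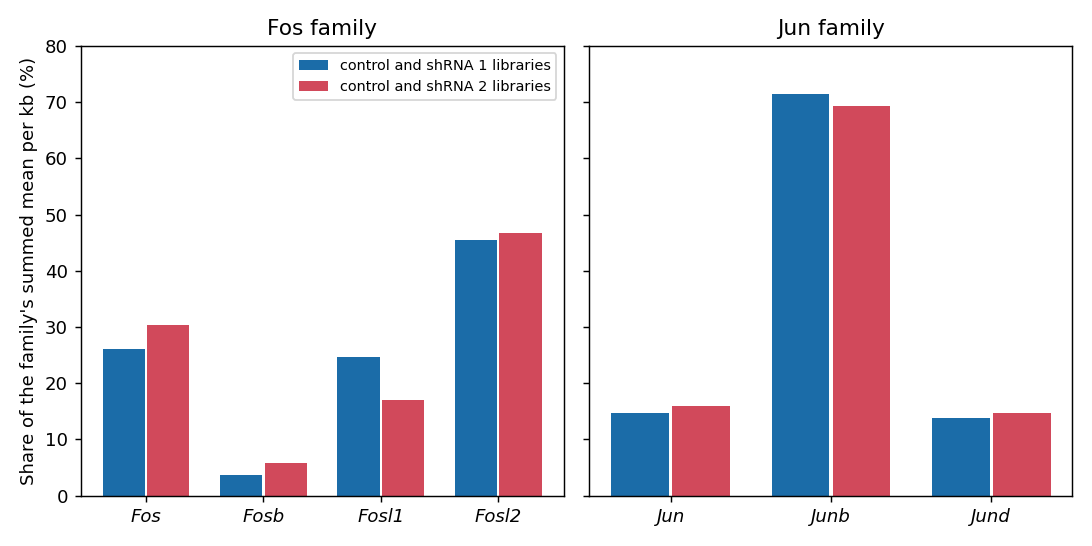
Share of each family's summed mean per kb held by each gene (%, axis from 0), with 1 bar for each table. *Junb* holds 71.4% and 69.4% of the Jun family and *Fosl2* 45.6% and 46.7% of the Fos family, while *Fosl1* goes from 24.7% to 17.1%.

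To ask where the hairpins differed, the mean of each gene in the shRNA 2 table was divided by that in the shRNA 1 table. Over the 7757 genes whose mean reached 100 in each table, the median log2 ratio was 0.07, and this was subtracted so that a value of 0 means the typical gene. The controls are in both means and pull every ratio towards 0, so the hairpin groups differed by at least the ratio given, provided the scaling and the shared controls hold. Among the Fos family the ratios ran in opposite directions. *Fosb* had mean normalized counts of 51.1 and 88.4 and a scaled ratio of 1.65 (0.72 on the log2 scale). Its mean in the shRNA 2 libraries was thus at least 1.65 times that in the shRNA 1 libraries, and at least 65.0% of the control mean, which does not settle whether it lay above or below the control. *Fosl1* had mean normalized counts of 158 and 117 and a log2 ratio of -0.50. Its mean in the shRNA 1 libraries was at least 1.41 times that in the shRNA 2 libraries, and at least 41.1% of the control mean.

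Past a ratio of 1.2 in either direction, 1 of the 10 members was higher in the shRNA 2 table (*Fosb*), against 6.44% of the 11451 genes whose mean reached 10 in each table, and 1 was lower (*Fosl1*), against 6.63%. Both shares for all genes are higher at low means: among 3694 genes whose lower mean was between 10 and 100, which include *Fosb*, 13.4% were higher and 11.5% lower. Among 6491 genes between 100 and 1000, which include *Fosl1*, the shares were 3.47% and 4.51%. A ratio at least as high as that of *Fosb* was found for 62 genes, or 0.541% of those compared. A ratio at least as low as that of *Fosl1* was found for 139 genes, or 1.21%. Both shares were taken over genes at all levels and not within the range of means that holds each gene.

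**Figure D3:**
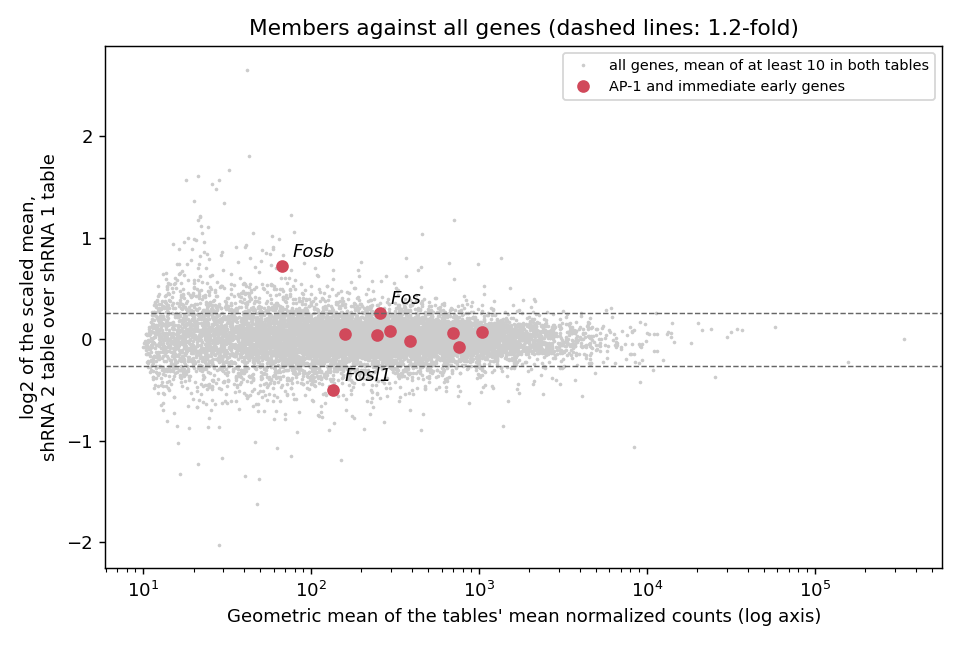
Scaled log2 ratio of the shRNA 2 table over the shRNA 1 table against the geometric mean of the tables' mean normalized counts (log axis), for all 11451 genes compared (grey) and the 10 members (red), with dashed lines at a ratio of 1.2. *Fosb* at 0.72 and *Fosl1* at -0.50 lie outside the lines, *Fos* at 0.26 lies just inside the upper line, and the other members lie near 0.

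*Fos*, the classic serum-induced partner of Jun, came next. It had mean normalized counts of 229 and 287 and a log2 ratio of 0.26, a ratio of 1.19, which is just under the limit of 1.2 and passes it without scaling (log2 ratio 0.32) or with scaling by the summed means (0.27). A ratio at least as high was found for 6.77% of the genes compared, at all levels. The other 7 members lay between -0.08 and 0.08 on the log2 scale. These include all 3 Jun genes, with *Jun* at 0.08 (mean normalized counts of 280 and 310), *Jund* at 0.04 (237 and 256) and *Junb* at -0.08. *Fosl2* had a log2 ratio of 0.07 and *Egr1* of 0.06. *Atf3*, a stress-induced factor that pairs with Jun proteins, had mean normalized counts of 153 and 166 and a log2 ratio of 0.05. *Ier3*, with 384 and 396, had a log2 ratio of -0.02, the value nearest to 0, which turns to 0.05 without scaling. The median over the 10 members was 0.06, against 0.0043 over all genes compared. Above 0 lay 7 members and below it 3, beside 5859 and 5591 of the 11451 genes compared. Without scaling, 8 members lay above 0. A ratio near 0 says that the pooled means were alike and not that either hairpin left a gene at its control level, since equal changes with both hairpins cancel in this ratio.

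**Figure D4:**
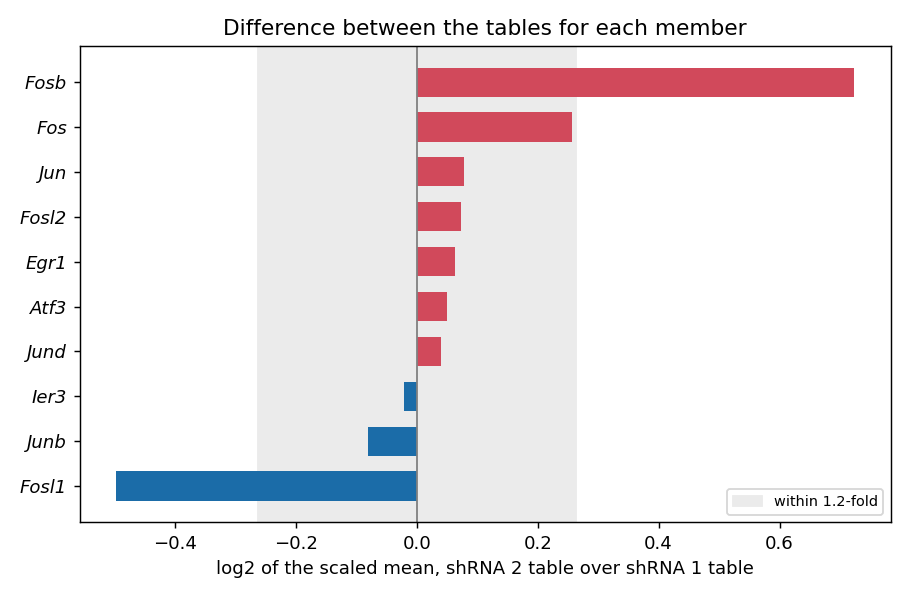
Scaled log2 ratio of the shRNA 2 table over the shRNA 1 table for each of the 10 genes, with the range within 1.2-fold shaded. *Fosb* (0.72) and *Fosl1* (-0.50) extend past the shaded range in opposite directions, *Fos* (0.26) reaches almost to its edge, and the other 7 genes lie between -0.08 and 0.08.

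Promoter sequence is shown for the Fos family members with a window in the RefSeq table of GRCm38.p6, because this family held the differences above. Of the 10 members, 8 had a window of 250 bases before and 50 after the annotated start, without *Egr1* and *Fosl1*. The lines below are the 120 bases before the start on the strand of the gene, 5′ to 3′, with TATAAA and TGACG, the core of the cAMP response element, in capitals. They lie at chr12:85473770-85473889 (+ strand) for *Fos*, chr7:19310046-19310165 (- strand) for *Fosb* and chr5:32136352-32136471 (+ strand) for *Fosl2*.
Fos: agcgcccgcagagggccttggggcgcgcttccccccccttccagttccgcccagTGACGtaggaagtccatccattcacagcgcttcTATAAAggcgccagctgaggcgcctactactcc
Fosb: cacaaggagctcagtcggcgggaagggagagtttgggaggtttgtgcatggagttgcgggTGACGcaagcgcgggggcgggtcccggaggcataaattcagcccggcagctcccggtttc
Fosl2: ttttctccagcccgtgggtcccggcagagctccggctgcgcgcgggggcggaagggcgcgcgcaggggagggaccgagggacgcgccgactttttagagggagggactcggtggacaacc

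Both *Fos* and *Fosb* held TGACG at a similar place, at -66 to -62 and -60 to -56 from the start, and *Fos* held a further TGACG at -129 to -125, outside the bases shown. *Junb* held TGACG at -106 to -102, and *Atf3* held it on the opposite strand at -7 to -3. In all, 4 of the 8 windows held TGACG on either strand, against 20.8% of all 32851 windows. This motif was chosen after the sequences had been seen. TATAAA was found in 2 of the 8 windows, *Fos* at -33 to -28 and *Junb* at 0 to 5, that is, from the annotated start itself, against 13.6% of all windows. The AP-1 site TGACTCA (5.20% of all windows), the full cAMP response element TGACGTCA (1.79%), which contains TGACG, and the CArG box of the serum response factor (1.63%) were searched on both strands and matched in 0 of the 8 windows. These letters were thus not in the 300 bases searched, which says nothing of sites farther away.

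The genes lie apart in the genome. On mm9, the build the authors mapped to, GENCODE M1 places *Fos* at chr12:86814840-86818223 (+ strand, 4 exons in its longest coding transcript), *Fosb* at chr7:19888070-19895394 (- strand, 4 exons) and *Fosl1* at chr19:5447703-5455945 (+ strand, 4 exons). The 3 Jun genes have 1 exon each, *Jun* at chr4:94715725-94718913 (- strand), *Junb* at chr8:87500811-87502617 (- strand) and *Jund* at chr8:73221638-73224515 (+ strand). Genes annotated on the opposite strand overlap *Fosl1*, *Jun*, *Jund* and *Egr1*. Of these only *Ccdc85b*, which overlaps *Fosl1*, is listed in the tables, with means of 101 and 112 before scaling. The libraries were made to keep the strand, but the strand setting of the counting is not given in the sources used here, and whether reads of this pair were told apart was not tested.

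The other genes of the pathway were read from lists written with earlier results of these data known. Of 34 other immediate early genes, 28 were listed in both tables and 26 reached a mean of 10. Of these 26, 0 passed a ratio of 1.2, beside 6.44% of all genes compared that were higher and 6.63% that were lower past it. Above 0 lay 17 and below it 9, beside 5859 and 5591 of all genes compared. The median log2 ratio of the 26 was 0.08. Most of the 26 had a lower mean between 100 and 1000, where the shares for all genes were 3.47% and 4.51%. In the shRNA 1 table, the highest levels per kb were those of *Ctgf* (3477 and 3302 per kb) and *Cyr61* (773 and 855), matricellular genes of serum and Yap signalling, and *Klf6* (614 and 627), a zinc finger factor. In the shRNA 2 table, the kinase gene *Plk2* (602 and 644) lay above *Klf6*. *Egr3*, *Egr4*, *Nr4a3*, *Arc*, *Npas4* and *Klf2* were not in the tables.

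Among the bZIP partners, which can pair with Fos or Jun proteins or compete for related sites, 16 of 21 were listed and their median log2 ratio was 0.02. The highest per kb in the shRNA 1 table were *Atf4* (813 and 841) and *Atf5* (418 and 511), which act in amino acid and endoplasmic reticulum stress, and *Atf7* (149 and 145), whose annotated exons span 390 bases. *Atf7* had the lowest mean normalized counts of these 16, 58.2 and 56.5, so its place per kb rests on that short annotated length. In the shRNA 2 table *Mafk* (135 and 157) lay above *Atf7*. *Ddit3*, which encodes the stress factor CHOP, was the 1 gene of these 16 past 1.2, beside 6.63% of all genes that were lower past it, with mean normalized counts of 247 and 203 and a log2 ratio of -0.35. Among genes whose lower mean was between 100 and 1000, which include *Ddit3*, 4.51% were lower past 1.2.

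Upstream of the members, all 23 kinases and factors were listed and 0 passed 1.2, beside 6.44% and 6.63% of all genes, and the median log2 ratio was -0.01. Most of these 23 had a lower mean between 100 and 1000, where the shares for all genes were 3.47% and 4.51%. In the shRNA 1 table *Mapk3*, which encodes ERK1, was the highest (478 and 541 per kb), followed by *Mapkapk2* (330 and 359) and *Mapk14*, which encodes p38 alpha (191 and 187). *Srf*, the factor that binds the CArG box, had the highest log2 ratio of this list, 0.24, at mean normalized counts of 167 and 206.

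The list of genes known as AP-1 targets had 13 of 16 in the tables, with a median log2 ratio of -0.07. Past 1.2, 2 of the 13 were higher and 3 lower, beside 6.44% and 6.63% of all genes, and the difference between this list and the others was not tested. *Mmp13*, the collagenase 3 gene, had mean normalized counts of 30.6 and 66.3 and the highest log2 ratio of any gene in these lists, 1.05. A ratio of 2.07 between pooled means that share their controls requires, on the same conditions, that the mean in the shRNA 2 libraries be at least 1.07 times the control mean. *Cd44*, a hyaluronan receptor, had means of 2258 and 2845 and a log2 ratio of 0.27. On the other side, *Areg*, a ligand of the EGF receptor, had a log2 ratio of -0.42 at means of 23.1 and 18.1. *Plau*, the urokinase gene, had -0.38 (110 and 89.2). Among genes whose lower mean was between 10 and 100, which include *Mmp13*, *Areg* and *Plau*, 13.4% were higher past 1.2 and 11.5% lower. From a mean of 1000 up, where *Cd44* lay, 1.42% were higher. The ratio of *Cd44* barely passed the limit. The highest targets per kb, *Ccnd1* (3421 and 3108), *Spp1* (2448 and 2650) and *Vim* (1875 and 1867), stayed within it. Of the 7 hepatocyte markers, 4 lay above 0 and 3 below, beside 5859 and 5591 of all genes compared. The median log2 ratio of these markers was 0.01, and *Alb* was the 1 gene past the limit, at -0.31. Past the limit, 6.63% of all genes were lower, and 3.24% of those from a mean of 1000 up, where *Alb* lay.

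**Figure D5:**
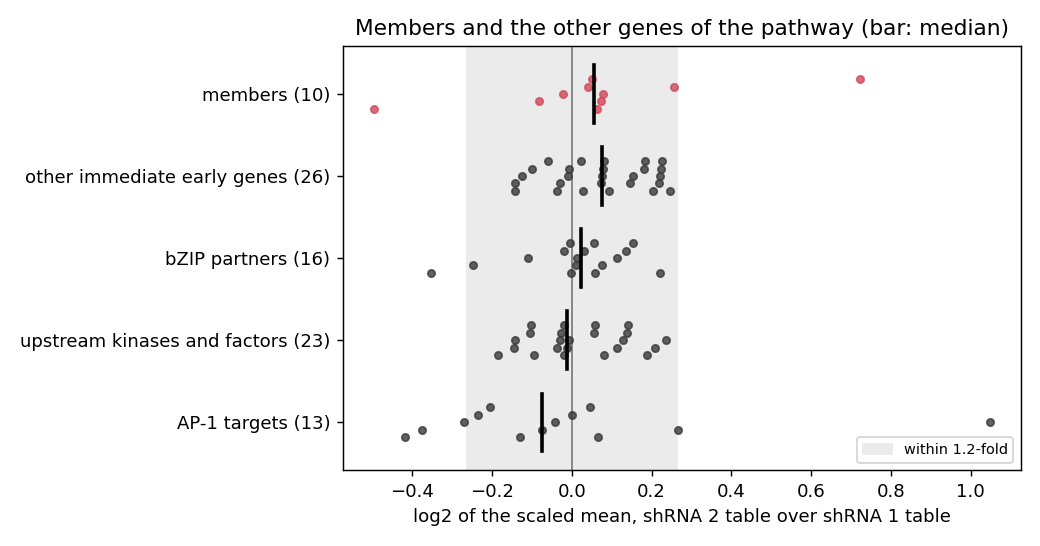
Scaled log2 ratio of the shRNA 2 table over the shRNA 1 table for the 10 members (red) and the other genes of the pathway (dark), with 1 point per gene whose mean reached 10 in each table, the median of each list as a bar and the range within 1.2-fold shaded. The other immediate early genes and the upstream genes lie wholly inside the shaded range, while *Mmp13* at 1.05 and *Fosb* at 0.72 lie farthest to the right.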

How the data were processed

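RNA-seq libraries of AML12 cells (3 control, 3 *Srrm2* shRNA 1, 3 shRNA 2; grouped by sample title) had been trimmed and aligned to mm9 by the authors with TopHat2, reduced to unique concordant pairs, and counted with HTSeq on GENCODE M1. The authors deposited, for each hairpin, a DESeq2 (version 1.8.2) table whose mean normalized count pools 6 libraries, a library-size-adjusted signal with no value per library. The deposited tables also hold log2 fold changes, standard errors, test statistics and p-values of the authors' own comparisons, which were not used. Genes absent from a table were not analysed here, and the lowest mean listed was 1.56 (shRNA 1) and 1.92 (shRNA 2).

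All 13643 gene identifiers matched GENCODE M1. Means were divided by merged exon length. Ratios between tables were scaled by the median log2 ratio (0.07) over the 7757 genes reaching a mean of 100 in each table. The ratio code was run on simulated means without noise or shared controls. That run checks the arithmetic of the ratio and scaling only, and not the lower bounds given above. Depth per library is unknown, so no interval was given. The genes named are the 10 members, *Srrm2*, and, of each list, the 3 highest per kb in the shRNA 1 table and up to 3 with the largest ratio past 1.2; markers, *Srf*, *Plk2* and *Mafk* were named besides, after their values were seen. Of the genes this rule picks, 1 AP-1 target is not reported here. The members and lists were chosen with earlier results of these data known. Alternatives were other scalings, ratio limits, minimum means and transcript lengths. Python 3.11.15, numpy 2.4.6, pandas 2.3.3 and matplotlib 3.10.9 were used.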

Additional observations from a re-analysis of the deposited data

How the results depend on the processing

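The 2 members past a ratio of 1.2 were 3 without scaling, 3 with scaling by the summed means and 3 at a limit of 1.1, the added gene being *Fos*. At a limit of 1.5 the count was 1, *Fosb*, and with a minimum mean of 100 it was 1, *Fosl1*, since *Fosb* was then left out. The shares of all genes past the limit moved as well. Without scaling, 11.1% were higher and 3.96% lower, and with scaling by the summed means 6.93% and 6.2%. At a limit of 1.1 the shares were 18.4% and 17.5%, and at 1.5 they were 0.865% and 0.716%. With a minimum mean of 100 they were 3.13% and 4.31%. Of the 10 members, *Ier3* alone changed the sign of its ratio, and only without scaling, which shifts all log2 ratios by 0.07. The length of the longest coding transcript changed the level of *Fos* (109 per kb in place of 97.4 in the shRNA 1 table) and no member's rank there. No paired analysis was possible because the tables hold no value per library, and for the same reason no replicate could be left out. Depth and spread are unknown for every member.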
